A study of Mus musculus with 9 samples.

Results

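The RNA of astrocytes, oligodendrocytes, neurons and blood vessels was measured in immunopanned mouse brain microglia through 35 marker genes, out of 18571 genes in the table. The genes are listed by symbol as markers of 4 cell classes that CD45 panning should leave behind, 10 for astrocytes, 7 for oligodendrocytes, 8 for neurons and 10 for vessels. All 35 were in the table and all 35 were among the 14696 genes that passed the filter on low counts. The study prepared 9 poly-A RNA libraries, 3 in each of 3 groups of 9-month-old C57BL6/j mice. The WT group was wild type. The APP/PS1 group carried the transgenes of an Alzheimer's disease model that deposits amyloid plaques. The Cx43 cKO group carried APP/PS1, Cx3cr1-CreER and Cx43-flox/flox, so that tamoxifen deletes Cx43 (gene symbol Gja1) in cells that use the Cx3cr1 promoter, which besides microglia include other myeloid cells. The labels state tamoxifen gavage at 8 months, 0.1 mg/g on 5 days, for every sample, and name neither Cre nor a floxed allele for WT and APP/PS1. Cortex and hippocampus without meninges were dissociated with papain, and cells held by the CD45 antibody were lysed on the plate. The labels do not say whether the 3 libraries of a group came from separate animals, so p-values measure only the spread between these libraries, which may be technical.

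Astrocytes take up glutamate, buffer ions and water, and reach vessels with their endfeet, and near amyloid plaques they become reactive and make more of the filament protein GFAP. Oligodendrocytes wrap axons in myelin, and neurons signal through synaptic vesicles. Brain vessels consist of endothelial cells sealed by tight junctions, with pericytes around the capillaries. None of these cells carries CD45, so panning is meant to leave them behind. In a bulk sample fewer cells of a type and less RNA per cell cannot be told apart.

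Total counts were alike, between 18907681 and 19565354 per library. The 12 defining microglial genes summed to 21493 ± 182 CPM in WT, 25341 ± 124 for APP/PS1 and 22830 ± 75.8 for Cx43 cKO (CPM are counts scaled to a common, TMM-corrected library total, with mean ± SD, n = 3 libraries, as for all values below unless stated). The targeted gene Gja1, which in brain is itself best known as the astrocyte connexin, had 682, 642 and 716 counts in WT, 727, 688 and 788 for APP/PS1 and 514, 484 and 539 for Cx43 cKO. Its log2 change from APP/PS1 to Cx43 cKO was -0.56 ± 0.06 (SE, edgeR adjusted p = 8.0e-09), while the 10 astrocyte markers had a median log2 change of -0.46 in that comparison. The Y-linked Ddx3y had 0, 1 and 2 counts in the Cx43 cKO libraries and at least 4137 in each of the other 6, so sex and genotype cannot be told apart in any comparison with Cx43 cKO. Other blood and border markers moved strongly between groups. The 12 monocyte and neutrophil genes summed to 2907 ± 27.2 CPM in WT, 978 ± 16.9 for APP/PS1 and 9144 ± 117 for Cx43 cKO, and the 8 erythroid genes to 1225 ± 28.6, 262 ± 13.7 and 103 ± 5.60. Their part in the results on the 35 genes was not tested.

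Of the 35 genes, 18 shared no stretch of 50 bases (the read length) with another gene's transcripts, 13 shared up to 5% of their stretches and 4 shared more. Nefl shared 31.8% with Nefm, Aldh1l1 shared 10.02% and Ermn 6.44%. Ly6c1, a surface protein of brain endothelium, shared 32.8%, mostly with its neighbour Ly6c2, a gene of monocytes. Ly6c1 lies at chr15:75044018-75048920 and Ly6c2 at chr15:75108161-75112066 in GRCm38.p6, 59240 bp apart, and their coding sequences of 396 bases are 97.7% identical, with 9 differing bases. The first 90 coding bases, which hold 6 of those differences, are shown as a stretch where the copies can be told apart, and capitals mark the bases that differ.
Ly6c1: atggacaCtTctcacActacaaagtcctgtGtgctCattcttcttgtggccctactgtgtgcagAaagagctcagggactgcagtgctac
Ly6c2: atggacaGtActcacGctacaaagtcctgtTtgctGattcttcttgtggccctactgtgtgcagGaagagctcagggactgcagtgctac

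All 35 genes were detected in every library. The highest mean level over the 9 libraries was that of Mbp, a main protein of compact myelin, at 961 TPM (a scale corrected for transcript length). It was followed by Ly6c1 at 187 TPM, the myelin enzyme Cnp at 168 TPM and the pericyte gene Rgs5 at 101 TPM. In Cx43 cKO the order differed, with Cnp above Ly6c1 (165 against 106 TPM) and the myelin gene Mag above Rgs5 (92.0 against 87.5 TPM). For scale, the microglial gene Cx3cr1 stood at 1529 TPM in WT, 1146 TPM with APP/PS1 and 750 TPM with Cx43 cKO, where Mbp had 1128, 826 and 930 TPM. Mbp was thus below Cx3cr1 in WT and above it in Cx43 cKO. The lowest was Rbfox3, which encodes the neuronal nuclear protein NeuN, at 1.38 TPM, and Nefl, Syn1 and Syt1 were also under 4 TPM. The astrocyte genes ranged from Aqp4 at 4.53 TPM to the glutamate transporter Slc1a3 at 82.1 TPM. Together the 35 genes took a mean of 0.313% of all counts in WT, 0.296% for APP/PS1 and 0.261% for Cx43 cKO. In CPM their sum was 2955 ± 27.0 in WT, 3077 ± 20.9 for APP/PS1 and 2657 ± 27.9 for Cx43 cKO, so that APP/PS1 turned higher than WT.

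Summed over each class, the 4 backgrounds did not move in parallel. The astrocyte sum was 498, 483 and 488 CPM in the WT libraries, 657, 651 and 672 for APP/PS1 and 518, 508 and 520 for Cx43 cKO. APP/PS1 stood apart from both other groups, with a log2 ratio of the group means of 0.43 to WT, which was 0.29 with library totals or without Slc1a2 and 0.041 on summed TPM. The vessel sum was 894, 895 and 909 CPM in WT, 885, 875 and 873 for APP/PS1 and 693, 667 and 686 for Cx43 cKO, where the lowest library of APP/PS1 was well above the highest of Cx43 cKO. The neuron sum was 55.7, 61.9 and 55.5 CPM in WT, 59.5, 68.4 and 58.5 for APP/PS1 and 40.6, 42.8 and 40.0 for Cx43 cKO. WT and APP/PS1 overlapped in the neuron sum, and all Cx43 cKO libraries were below them. The oligodendrocyte sum was 1476, 1533 and 1516 CPM in WT, 1453, 1490 and 1491 for APP/PS1 and 1377, 1441 and 1438 for Cx43 cKO. The oligodendrocyte sums of WT and APP/PS1 overlapped in CPM but not on summed TPM (1686 ± 32.6 and 1248 ± 19.3, a log2 ratio of -0.43), and the log2 ratio of Cx43 cKO to APP/PS1 was -0.06, against -0.36 for astrocytes, -0.36 for vessels and -0.60 for neurons. Taken by replicate number, each APP/PS1 library was above its WT counterpart in the neuron sum in CPM and below it in the oligodendrocyte sum. No p-value is given for sums over chosen genes. On summed TPM the oligodendrocyte ratio of Cx43 cKO to APP/PS1 turned to 0.13, and the neuron ratio of APP/PS1 to WT turned from 0.11 to -0.24. With library totals that neuron ratio was -0.030.

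**Figure D1:**
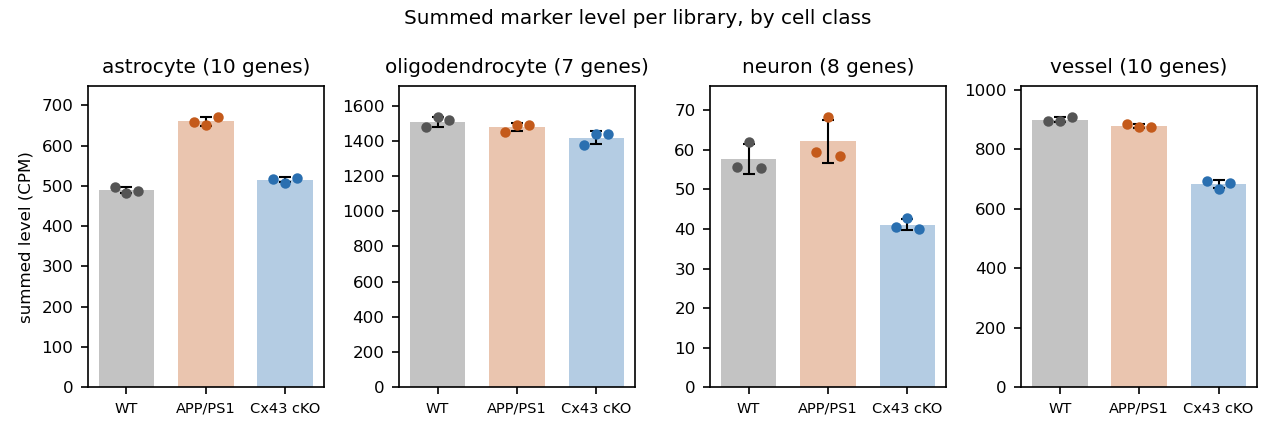
Summed level of the markers of each cell class in CPM, with 1 point per library, bars for the group mean and error bars for the SD (n = 3). The astrocyte sum was highest in APP/PS1 (659.8 ± 10.8 CPM), the vessel sum was lowest in Cx43 cKO (682 ± 13.3 CPM), and the oligodendrocyte sums lay between 1377 and 1533 CPM in all libraries.

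APP/PS1 was compared with WT to see how the amyloid model changed the transcripts of each class in these preparations. By the edgeR quasi-likelihood test at an adjusted p of 0.05 over all tested genes, 14 of the 35 genes were higher, 11 were lower and 10 did not pass. The lower calls numbered 4 by DESeq2's Wald test, 6 with only the groups compared and 7 without APP/PS1 replicate 1. For these no share of all genes was worked out, so they have no background here. The lower calls were 7 with DESeq2 size factors (29.7% of all genes), 17 with library totals (46.9%) and 21 on TPM (65.9%). On TPM the higher calls numbered 6 (11.4%). Across all tested genes 26.9% were called higher, 32.1% lower and 59% in either direction, so the members' share called in either direction, 71.4%, stood beside a background that was itself large. The median log2 change of the 35 genes was 0.02, and that of all tested genes was -0.04. The CPM values of the groups did not overlap for 26 of the 35 genes, against 63.5% of all tested genes.

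The astrocyte genes were higher in APP/PS1 for 8 of 10 members, with 1 lower and 1 that did not pass, and their median log2 change was 0.42, but on log2(TPM + 1) 4 were higher and 4 lower with a median of 0.02, where the median of all genes was -0.35. Gfap (gene ID 14580, chr11:102887336-102897200), the filament protein of reactive astrocytes, had 139, 146 and 131 counts in WT, 702, 791 and 786 for APP/PS1 and 829, 829 and 819 for Cx43 cKO. The APP/PS1 libraries were all at least 4 times as high as any WT library, and the mean rose from 6.85 ± 0.396 to 41.1 ± 2.38 CPM, a log2 change of 2.58 ± 0.07 (SE, edgeR adjusted p = 1.9e-21). Fabp7, a fatty acid binding protein of astrocytes and their precursors, had 67, 70 and 75 counts in WT against 175, 195 and 210 in APP/PS1, a log2 change of 1.58 ± 0.15, or 0.79 with offsets for GC content and length. Aqp4, the water channel of astrocyte endfeet, had 165, 145 and 133 counts in WT against 297, 293 and 294 in APP/PS1, a log2 change of 1.13 ± 0.09. The groups did not overlap for either gene. Slc1a2, the main glutamate transporter of astrocytes, rose by a log2 change of 0.66 ± 0.03, from 3483, 3384 and 3483 counts to 4956, 4874 and 5091. Aldh1l1, an enzyme of folate metabolism used as a general astrocyte marker, rose by 0.51 ± 0.10 on the log2 scale, with 157, 180 and 174 counts in WT and 190, 257 and 219 in APP/PS1.

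The other astrocyte genes moved less. The bicarbonate transporter Slc4a4 rose by 0.32 ± 0.06 and the receptor gene Gpr37l1 by 0.19 ± 0.06 on the log2 scale, and both had a negative change on the TPM scale, where Gpr37l1 was called lower (-0.20). The higher call of Gpr37l1 was also lost with library totals (0.05) and without WT replicate 3 (0.15). The second glutamate transporter, Slc1a3, had 3415, 3257 and 3476 counts in WT and 3298, 3284 and 3424 in APP/PS1, so raw counts overlapped. After TMM scaling its log2 change was 0.11 ± 0.03 (edgeR adjusted p = 0.0058), but it turned to -0.03 with library totals and -0.28 on TPM, and without WT replicate 2 it was 0.08 and no longer passed. Atp1b2, a subunit of the sodium pump, was lower by a log2 change of -0.11 ± 0.04, a call that was lost without any one of 5 libraries and turned to 0.02 with offsets for GC content and length. The neurotensin receptor Ntsr2 had a log2 change of 0.12 and did not pass.

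The oligodendrocyte genes were split, with 2 higher, 3 lower and 2 that did not pass. Mog, a protein of the outer myelin surface, had 435, 454 and 434 counts in WT and 606, 550 and 586 in APP/PS1, and rose from 21.8 ± 0.558 to 31.4 ± 1.76 CPM (log2 change 0.53 ± 0.06). Ermn, a cytoskeletal protein of mature oligodendrocytes, rose by 0.51 ± 0.06 on the log2 scale, from 32.1 ± 3.09 to 45.6 ± 2.38 CPM, but on TPM its change was 0.11 and did not pass. Mbp, which makes up most of the class, had 18684, 20034 and 19888 counts in WT against 16683, 17658 and 17529 in APP/PS1. Its level after scaling was 965 ± 28.3 and 935 ± 21.1 CPM, which overlapped, with a log2 change of -0.04 that did not pass, though it did when libraries were blocked by number (-0.04 ± 0.008, edgeR adjusted p = 8.8e-06). Cnp at -0.03 did not pass either. Mag, Mobp and Cldn11, the first a cell adhesion protein and the others structural proteins of myelin, were lower by log2 changes of -0.12, -0.08 and -0.10. Mag turned to 0.09 with GC and length offsets. The calls of Mobp and Cldn11 each ended without any one of several libraries, WT replicate 1 and APP/PS1 replicates 1 and 2 among them.

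Among the neuronal genes 3 were higher, 1 was lower and 4 did not pass. The higher and lower calls were 1 and 0 with GC and length offsets (26.8% and 27% of all genes). With library totals they were 1 and 2 (19.6% and 46.9%), and on TPM 0 and 3 (11.4% and 65.9%). Snap25, part of the machinery that fuses synaptic vesicles, had 293, 329 and 297 counts in WT and 310, 367 and 342 in APP/PS1, and its log2 change of 0.28 ± 0.07 turned to -0.10 on TPM. Nefl, a neurofilament subunit, rose by 0.53 ± 0.15 and Stmn2, a regulator of axonal microtubules, by 0.46 ± 0.16 on the log2 scale, and neither passed on TPM, where Nefl had 0.11. Stmn2 ranged from 86 to 146 counts within WT, and its call ended without WT replicate 1 or 3 or APP/PS1 replicate 1 or 2. Gad1, the GABA-synthesising enzyme of inhibitory neurons, had 234, 250 and 255 counts in WT and 195, 186 and 188 in APP/PS1. All APP/PS1 libraries were below WT in CPM, and it fell by 0.25 ± 0.08 on the log2 scale (edgeR adjusted p = 0.013), a call that was lost with GC and length offsets (-0.19) and by DESeq2's Wald test. Syt1, Rbfox3, Tubb3 and Syn1 had log2 changes between -0.11 and 0.06.

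Vessel genes were lower for 6 of 10 members and higher for 1. The 3 pericyte genes were all lower. Pdgfrb, the receptor that recruits pericytes, had 1260, 1353 and 1298 counts in WT, 710, 747 and 725 for APP/PS1 and 655, 690 and 718 for Cx43 cKO. Every WT library was far above all others, and the mean fell from 64.4 ± 2.0 to 39.3 ± 0.750 CPM (log2 change -0.71 ± 0.05, edgeR adjusted p = 3.4e-13). Kcnj8 (gene ID 16523, chr6:142564837-142571614), a potassium channel subunit of pericytes, had 220, 227 and 209 counts in WT, 106, 108 and 109 for APP/PS1 and 87, 110 and 91 for Cx43 cKO. Its log2 change was -0.89 ± 0.10 between APP/PS1 and WT, with no overlap. Rgs5, a regulator of G protein signalling in pericytes, fell from 220 ± 5.01 to 197 ± 3.82 CPM, a log2 change of -0.16 ± 0.03.

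The endothelial genes gave smaller and mixed changes between APP/PS1 and WT, with 1 of 7 higher and 3 lower. The adhesion protein Pecam1 and the VEGF receptor Kdr were lower, with log2 changes of -0.16 and -0.17, and the call of Kdr was lost with GC and length offsets (-0.06) and by DESeq2's Wald test. The junction cadherin Cdh5, at -0.15 ± 0.06, lost its call without WT replicate 3 or APP/PS1 replicate 1 or 3, and turned to 0.02 with GC and length offsets. The tight junction protein Cldn5 (-0.09), the VEGF receptor Flt1 (0.06) and the organic anion transporter Slco1a4 (0.02) did not pass, though Flt1 did with the replicate block (edgeR adjusted p = 0.0099). Ly6c1 had 1428, 1482 and 1436 counts in WT and 2155, 1974 and 1897 in APP/PS1, a log2 change of 0.60 ± 0.06 that turned to -0.07 with GC and length offsets. Its near copy Ly6c2 had 853, 746 and 732 counts in WT against 219, 134 and 207 in APP/PS1, the opposite direction.

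**Figure D2:**
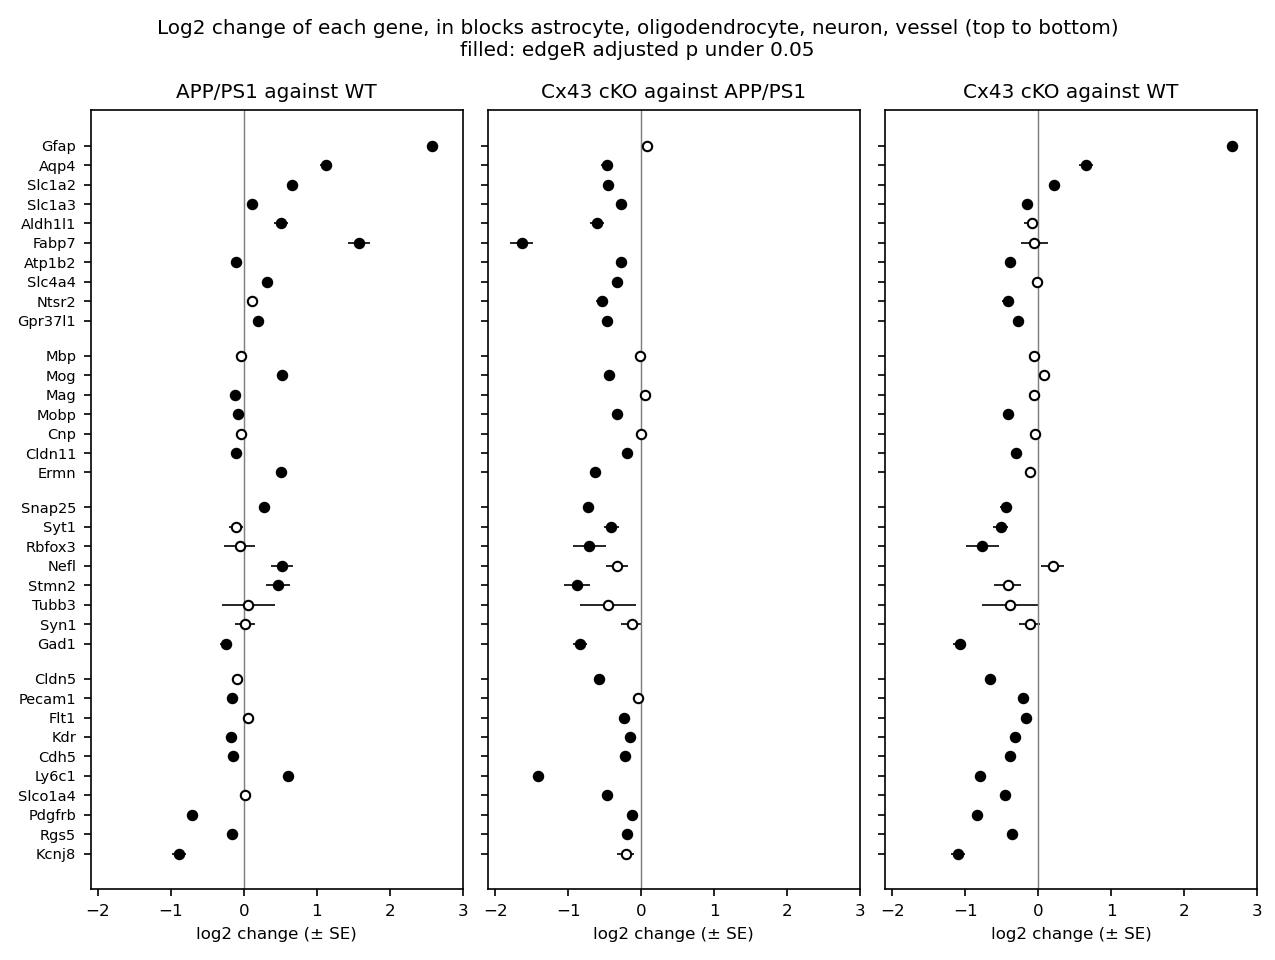
Log2 change of each of the 35 genes in the 3 comparisons (TMM scaling, error bars for the SE, filled points for an edgeR adjusted p under 0.05), in blocks of astrocyte, oligodendrocyte, neuronal and vessel genes from top to bottom. In the middle panel 33 of 35 values are below 0, while the left panel has 19 above and 16 below. On TPM most values shift one way, which turned the sign of some called genes.

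Cx43 cKO was compared with APP/PS1, with which it shares the amyloid model. By the labels the groups differed in the Cx3cr1-CreER and floxed alleles, and by Ddx3y in sex. The part of the Cx43 deletion cannot be told apart from these. By the edgeR test at an adjusted p of 0.05 the number of the 35 genes that were higher was 0, as it was at an unadjusted p of 0.05 and by DESeq2's Wald test, though 5 were higher on TPM and 1 with library totals. Lower were 26 genes, and 9 did not pass, while across all tested genes 27.3% were called higher, 27.7% lower and 55% in either direction. The median log2 change was -0.33 for the 35 genes and -0.01 for all tested genes, and 33 of 35 values were below 0. Between these groups 29 of the 35 genes did not overlap, against 59.7% of all tested genes. Of the 26 lower calls, 15 held in all 21 alternative fits, each read at the same adjusted p of 0.05.

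Astrocyte genes were lower in Cx43 cKO than APP/PS1 for 9 of 10 members, with Gfap as the exception. Gfap was at 43.3 ± 0.623 CPM in Cx43 cKO and 41.1 ± 2.38 in APP/PS1, a log2 change of 0.08 ± 0.05 that did not pass (edgeR adjusted p = 0.21). Under offsets and the replicate block together it turned to -0.11 and all 35 members were called lower, against 32.1% of all tested genes. Fabp7 fell to 44, 58 and 90 counts in Cx43 cKO, a log2 change of -1.64 ± 0.16 (-1.02 with GC and length offsets), and it was the most variable astrocyte gene within that group. Aldh1l1 fell by 0.60 ± 0.10, Ntsr2 by 0.53, Aqp4 by 0.47 ± 0.08 and Slc1a2 by 0.45 ± 0.03 on the log2 scale. Slc1a2 had 3702, 3743 and 3843 counts in Cx43 cKO, below every APP/PS1 library. Slc1a3 had 2863, 2796 and 2892 counts, lower by 0.27 ± 0.03 on the log2 scale, and Gpr37l1, Slc4a4 and Atp1b2 had changes of -0.47, -0.33 and -0.28.

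Since the other 9 astrocyte genes were lower and Gfap was not, its share of the class had to be higher in Cx43 cKO than with APP/PS1, and the shares are given only to describe this. Gfap made up 1.40% ± 0.0873 of the astrocyte counts in WT, 6.23% ± 0.361 for APP/PS1 and 8.41% ± 0.172 for Cx43 cKO (SD, n = 3). Set against the 9 other astrocyte genes, this was 14.2, 66.4 and 91.8 Gfap counts per 1000. These ratios within a library do not depend on the scaling between libraries, and they show unequal change, not which of the genes moved.

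Among the oligodendrocyte genes 4 of 7 were lower in Cx43 cKO than APP/PS1 in the reported fit. With GC and length offsets all 7 were lower (30% of all genes). On TPM 3 were higher and 3 lower (46.6% and 15.3% of all genes). Mog fell from 31.4 ± 1.76 to 23.1 ± 1.03 CPM, a log2 change of -0.44 ± 0.06, and Ermn to 29.5 ± 0.617 CPM, a change of -0.63 ± 0.06. Both were then close to WT, with log2 changes of 0.08 and -0.12 to WT that did not pass. Mobp had 1592, 1646 and 1662 counts in Cx43 cKO against 1983, 1931 and 2065 in APP/PS1 and fell by 0.33 ± 0.04 on the log2 scale, and Cldn11 fell by 0.20 ± 0.04. Mbp at 927 ± 34.9 CPM, Cnp and Mag had log2 changes of -0.01, -0.01 and 0.06 that did not pass. Mbp, the most abundant gene of the class, was not among the 4 lower ones of the reported fit. It alone took 63.3% of the class counts for APP/PS1 and 65.4% for Cx43 cKO.

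Neuronal genes were lower for 5 of 8 members. Gad1 had 115, 114 and 100 counts in Cx43 cKO against 195, 186 and 188 in APP/PS1, and fell from 10.3 ± 0.341 to 5.76 ± 0.476 CPM (log2 change -0.83 ± 0.10, edgeR adjusted p = 3.4e-08). Snap25 had 218, 202 and 217 counts against 310, 367 and 342, a log2 change of -0.72 ± 0.08. Both pairs of groups were fully separate. Stmn2 fell by 0.88 ± 0.18 and Syt1 by 0.41 on the log2 scale. Rbfox3, with 22 to 37 counts in Cx43 cKO and 37 to 59 in APP/PS1, had a log2 change of -0.71 ± 0.23, which was -0.47 without APP/PS1 replicate 2 and -0.56 without Cx43 cKO replicate 2 and then no longer passed. Nefl (-0.33), Tubb3 (-0.45) and Syn1 (-0.13) did not pass, and Tubb3 ranged from 57 to 103 counts within Cx43 cKO.

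Vessel genes were lower in Cx43 cKO than APP/PS1 for 8 of 10 members. Cldn5 had 735, 783 and 755 counts for APP/PS1 and 482, 553 and 537 for Cx43 cKO, and fell to 27.5 ± 1.75 CPM (log2 change -0.58 ± 0.05). Slco1a4 had 3110, 2926 and 3031 counts against 2303, 2160 and 2283, a log2 change of -0.47 ± 0.04. The groups did not overlap for either gene. Ly6c1 fell furthest, to 844, 710 and 788 counts (log2 change -1.41 ± 0.06, and -0.96 with GC and length offsets), while Ly6c2 had 1534, 1278 and 1332 counts, up by a log2 change of 2.84. Flt1, Cdh5 and Rgs5 fell by 0.23, 0.23 and 0.20 on the log2 scale, but on TPM they had -0.04, -0.03 and -0.004 and did not pass, and the lower vessel calls numbered 3. Kdr (-0.15) and Pdgfrb (-0.13) were called but turned to 0.04 and 0.06 on TPM, and lost the call without APP/PS1 replicate 1 (Kdr), APP/PS1 replicates 2 or 3 or Cx43 cKO replicate 1 (Pdgfrb), Cx43 cKO replicate 2 (either) or Cx43 cKO replicate 3 (Kdr). Pecam1 (-0.05) and Kcnj8 (-0.21) did not pass.

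**Figure D3:**
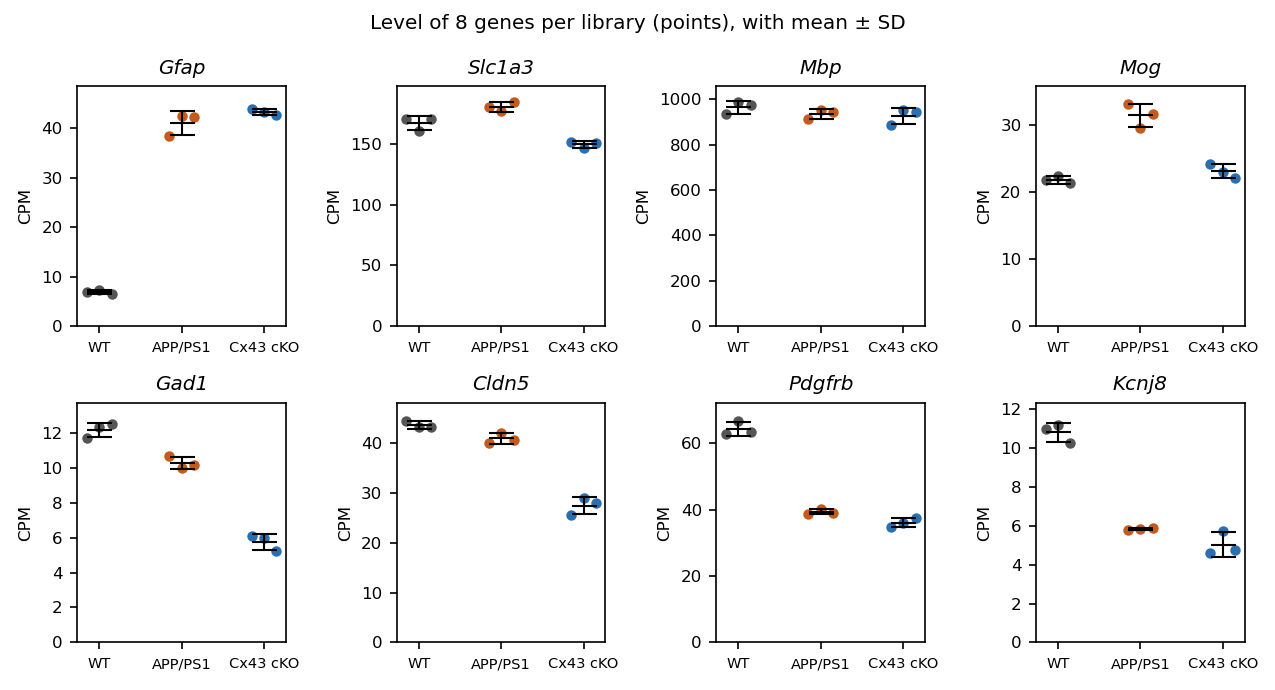
Level of 8 genes in CPM in each library (points), with the mean and SD of each group (n = 3), on axes from 0. Gfap was high in both groups that carry APP/PS1, Slc1a3 was lowest in Cx43 cKO, Mbp overlapped between groups, Mog was highest in APP/PS1, Gad1 and Cldn5 were lowest in Cx43 cKO, and Pdgfrb and Kcnj8 were highest in WT.

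Cx43 cKO differed from WT by the amyloid model, the Cx3cr1-CreER and floxed alleles and, by Ddx3y, in sex. By the edgeR test at an adjusted p of 0.05, 3 of the 35 genes were higher, 20 were lower and 12 did not pass, against 24.7% higher, 23% lower and 47.7% in either direction among all tested genes. The median log2 change was -0.30 for the 35 genes and -0.01 for all tested genes, and 24 of the 35 did not overlap, against 54.6% of all tested genes. All 3 higher genes were astrocytic, Gfap (2.66 ± 0.07), Aqp4 (0.66 ± 0.09) and Slc1a2 (0.21 ± 0.03) on the log2 scale. Other astrocyte genes were lower, with Ntsr2 at -0.42, Atp1b2 at -0.39, Gpr37l1 at -0.28 and Slc1a3 at -0.16. Fabp7 and Aldh1l1, higher in APP/PS1 than in WT, had changes of -0.06 and -0.09 that did not pass.

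All 10 vessel genes were lower in Cx43 cKO than in WT. The largest changes were in Kcnj8 (log2 change -1.10 ± 0.10), Pdgfrb (-0.84 ± 0.05), Ly6c1 (-0.80 ± 0.06) and Cldn5 (-0.67 ± 0.05), and the smallest were in Flt1 (-0.17 ± 0.03) and Pecam1 (-0.21 ± 0.04). Pecam1, Flt1 and Ly6c1 are also made by some blood cells, and without them the vessel sum was 565 ± 5.81 CPM in WT, 505 ± 0.885 for APP/PS1 and 409.5 ± 3.93 for Cx43 cKO. Of the 8 neuronal genes 4 were lower, Gad1 (-1.08 ± 0.09), Rbfox3 (-0.77 ± 0.23), Syt1 (-0.52) and Snap25 (-0.44), and none was higher. Of the oligodendrocyte genes Mobp (-0.41 ± 0.04) and Cldn11 (-0.30 ± 0.04) were lower and the other 5 did not pass. The lower calls of this class numbered 6 with library totals (38.1% of all genes), 6 on TPM (49.4%) and 4 with GC and length offsets (25.4%). All 20 lower calls held in each of the 21 alternative fits at an adjusted p of 0.05.

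Across the 3 comparisons, without the block, 4 genes were called in none, Mbp, Cnp, Tubb3 and Syn1, against 24.1% of all tested genes, and 18 were lower in Cx43 cKO than in each other group, against 8.89%. The comparisons share libraries, so these counts are not independent of each other. Within classes the members did not keep fixed proportions. Gad1 made up 21.1%, 16.6% and 14.0% of the neuronal counts in WT, APP/PS1 and Cx43 cKO, Pdgfrb 7.16%, 4.48% and 5.29% of the vessel counts, and Ly6c1 7.96%, 12.4% and 6.0%.

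Replicates were not always as close as sampling noise. Chance counting gives a Pearson dispersion near 1 per degree of freedom, and the value within groups was 1.46 for the astrocyte genes, 1.77 for vessel genes, 2.81 for neuronal genes and 3.30 for oligodendrocyte genes. Mbp had the highest value, 15, followed by Tubb3 at 9.58 and Ly6c1 at 6.4. In each of the 3 groups Mbp was lowest in replicate 1 and highest in replicate 2, and the neuron sum was highest in replicate 2. The labels do not say what a replicate number stands for.

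The scaling between libraries set the zero point of each comparison. Between APP/PS1 and WT the median log2 change of all tested genes was -0.04 with TMM, -0.17 with library totals and -0.35 on the log2(TPM + 1) scale, and the median of the 35 genes moved with it, to 0.02, -0.12 and -0.29. Measured from the median of all genes, the median of the 35 was 0.05 with TMM, 0.05 with library totals and 0.06 on TPM. Between Cx43 cKO and APP/PS1 the same distance was -0.32, -0.32 and -0.30, and between Cx43 cKO and WT -0.29, -0.29 and -0.31. On TPM the counts of calls shifted with it, to 6 higher and 21 lower between APP/PS1 and WT, where 11.4% and 65.9% of all genes were called. The higher calls that did not hold there were those of Aldh1l1, Slc1a3, Slc4a4, Gpr37l1, Ermn, Snap25, Nefl and Stmn2. Between Cx43 cKO and APP/PS1 they became 5 higher (Mbp, Mag, Cnp, Gfap and Pecam1) and 16 lower, where 46.6% and 15.3% were called. The lower calls that did not hold were those of Slc1a3, Slc4a4, Atp1b2, Cldn11, Syt1, Flt1, Kdr, Cdh5, Pdgfrb and Rgs5. Between Cx43 cKO and WT they became 2, without Slc1a2 (0.01), and 27, where 12.2% and 49.4% were called. With library totals the members called higher and lower in these comparisons were 10 and 17 (19.6% and 46.9% of all genes), 1 and 24 (30.6% and 25.2%), and 3 and 25 (16.7% and 38.1%). DESeq2 size factors gave 15 and 7 (28.3% and 29.7%), 0 and 26 (27.7% and 27.3%), and 3 and 20 (27.5% and 20.3%).

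Transcript length also moved with group. The 997 tested genes with transcripts under 1000 bases, Ly6c1 (784 bases) and Fabp7 (804 bases) among them, had a median log2 change of 0.71 between APP/PS1 and WT and -0.59 between Cx43 cKO and APP/PS1. With offsets for GC content and length these medians were 0.18 and -0.23. The members called higher and lower with these offsets were 14 and 8 between APP/PS1 and WT (26.8% and 27% of all genes), 0 and 31 between Cx43 cKO and APP/PS1 (23% and 30%), and 3 and 22 between Cx43 cKO and WT (23.4% and 25.4%). Gfap kept its call and sign between APP/PS1 and WT.

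**Figure D4:**
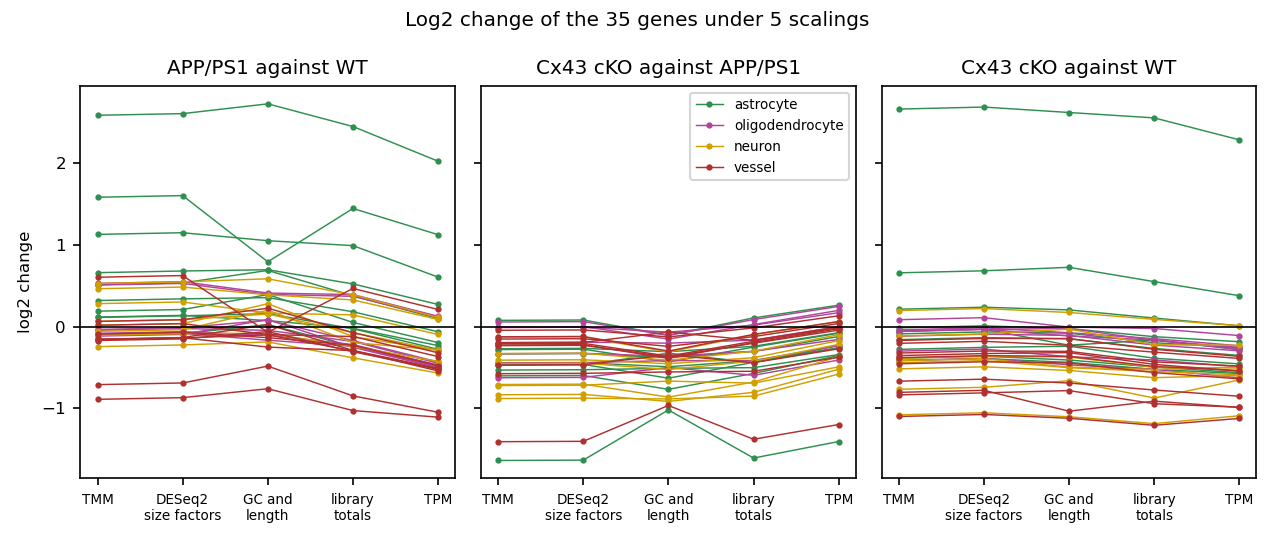
Log2 change of each of the 35 genes (1 line per gene, coloured by class) under 5 scalings in the 3 comparisons. Most lines run side by side, dropping from TMM to TPM in the left and right panels and rising in the middle one, while Ly6c1 and Fabp7 move apart from the rest with GC and length offsets and Ly6c1 turns from 0.60 to -0.07 in the left panel.

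Other markers of the same classes, taken from longer lists that were not members, gave the counts that follow, to be read against 26.9% higher and 32.1% lower among all genes between APP/PS1 and WT and 27.3% and 27.7% between Cx43 cKO and APP/PS1. Of 18 other astrocyte genes 9 were higher and 2 lower in APP/PS1 than in WT, and 1 was higher and 15 lower in Cx43 cKO than APP/PS1. Their sum, most of it Glul, was 2207 ± 30.0 CPM in WT, 2226 ± 52.5 for APP/PS1 and 2158 ± 23.9 for Cx43 cKO, and on summed TPM it was 1936, 1519 and 1657. Clu, a secreted chaperone, had log2 changes of 0.68 and -0.43 in these comparisons and the glycolytic enzyme Aldoc 0.61 and -0.49, but Glul, the glutamine synthetase that microglia can also express, had 1756, 1662 and 1744 CPM in WT, APP/PS1 and Cx43 cKO. Of 15 other oligodendrocyte genes 7 were higher and 2 lower in APP/PS1 than in WT, and none was higher and 7 lower in Cx43 cKO than APP/PS1. Their sum was 1484 ± 15.5 CPM in WT, 1826 ± 22.5 for APP/PS1 and 1524 ± 25.4 for Cx43 cKO. On summed TPM these were 1156, 1082 and 1026, so that APP/PS1 turned lower than WT, and in CPM much of the difference was in Enpp2 (264, 459.6 and 326 CPM), a secreted enzyme that choroid plexus also makes and whose part was not tested. Choroid plexus genes summed to 434, 1156 and 592 CPM in the same groups. Of 18 other neuronal genes 5 were higher and 2 lower in the first comparison and 1 higher and 6 lower in the next. Their sum was 198 ± 8.59 CPM in WT, 216 ± 7.96 for APP/PS1 and 206 ± 3.41 for Cx43 cKO. In CPM the Cx43 cKO sum was not below WT, while on summed TPM it was, with 136, 137 and 134 against 145, 161 and 151. Camk2a, a kinase of excitatory neurons, was higher in Cx43 cKO than in WT (log2 change 0.34 ± 0.05), as was Slc17a7, their vesicular glutamate transporter (0.36 ± 0.09). Gad2, the other GABA-synthesising enzyme, had the largest fall of that list in Cx43 cKO, by 1.21 on the log2 scale against APP/PS1.

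Of 16 other endothelial genes 4 were higher and 8 lower in APP/PS1 than in WT, and 1 was higher and 11 lower in Cx43 cKO than in WT, where 24.7% and 23% of all genes were called. Their sum was 1079 ± 9.38 CPM in WT, 1184 ± 17.9 for APP/PS1 and 1020.5 ± 13.8 for Cx43 cKO, but on summed TPM 862, 785 and 747, so that APP/PS1 turned lower than WT. All 9 other pericyte and smooth muscle genes were lower in Cx43 cKO than in WT, and 8 of 9 were lower in APP/PS1 than in WT. Their sum was 971 ± 9.56 CPM in WT, 751 ± 6.59 for APP/PS1 and 536 ± 2.29 for Cx43 cKO. Abcc9, which pairs with Kcnj8 in the same potassium channel, had log2 changes of -1.0 ± 0.06 for APP/PS1 and -1.12 ± 0.06 for Cx43 cKO against WT, and the contractile genes Acta2 and Tagln had -0.23 and -0.13 for APP/PS1 and -0.93 and -0.90 for Cx43 cKO. These further genes come from the same libraries and do not count as independent support for the members.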

How the data were processed

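The table held, per the file headers, 4 values per gene and library: an estimated count that need not be whole, FPKM, TPM and a normalised read count, a signal equal to the estimated count times 1 factor per library. The authors named HISAT, Bowtie2, DESeq2 and GRCm38.p6 in the submitters' processing notes, and no counter is given in the sources used here. The deposited FPKM values served only to infer transcript lengths, and the deposited normalised signal was not tested.

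The members and lists were chosen with earlier results of these data known. The design assumed whole counts, so estimated counts were rounded to whole numbers. Genes were filtered with filterByExpr (14696 of 18571 kept), scaled by TMM and fitted with edgeR 4.0.16 (quasi-likelihood, robust, all 9 libraries, 1 mean per group) in R 4.3.3, with Benjamini-Hochberg adjustment over all tested genes and a threshold of 0.05. CPM used TMM library sizes. The code was tested on simulated data. Same-numbered WT and APP/PS1 libraries deviated together (r 0.14 to 0.26 in 3 pairs over 10813 genes). For that comparison the numbers may thus pair the libraries, though no label says what they stand for. The reported fit had no term for the number, and counts with a replicate block are given below. PCR copies could not be told apart. Standard errors and p-values measure only the spread between these libraries, which may be technical. The libraries held 18907681 to 19565354 counts and the members had from 22 counts upward.

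Alternatives were DESeq2 1.42.0 size factors and its Wald test, library totals, voom and limma-trend (limma 3.58.1) on log2(TPM + 1) and log2(TPM + 0.1), no filter, a minimum of 10 counts, only the groups compared, a replicate block, offsets for GC content and length (GENCODE M21) with and without the block, and each library left out. Positions are from RefSeq for GRCm38.p6, matched for 35 of 35 members, and sequences are from GENCODE M21 transcripts. All members may be named. From each other list at most the 3 genes with the highest mean TPM and those with the largest and smallest log2 change per comparison may be named, besides Gja1, Ly6c2 and Ddx3y.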

Additional observations from a re-analysis of the deposited data

How the results depend on the processing

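Members called higher and lower between APP/PS1 and WT numbered 14 and 11. They were 6 and 21 on log2(TPM + 1) and on log2(TPM + 0.1), 3 and 0 at a fold of at least 2, and the lower calls were 7 with DESeq2 size factors, 17 with library totals, 4 by DESeq2's Wald test, 6 with only the groups compared and 6 at an adjusted p of 0.01. Between Cx43 cKO and APP/PS1 0 and 26 became 5 and 16 on both TPM scales, 1 higher with library totals and 2 lower at 2-fold. Between Cx43 cKO and WT 3 and 20 became 1 and 2 at 2-fold. Leaving out 1 library gave 12 to 14 higher and 7 to 11 lower, with 7 without APP/PS1 replicate 1, then 0 to 0 and 24 to 27, then 3 to 4 and 20 to 22. No share of all tested genes was worked out at 2-fold, at an adjusted p of 0.01 or by the Wald test. The same holds for only the groups compared and for 1 library left out, so those counts stand without a background.

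With the replicate block the counts were 15 and 12 (28.6% and 34.8% of all genes), 0 and 28 (30.3% and 29.9%), and 3 and 23 (27.9% and 26.1%), and with offsets and block together all 35 were lower between Cx43 cKO and APP/PS1 (32.1%). The block ended no member's call and added Tubb3, Nefl, Stmn2, Mag and Mbp in the comparisons with Cx43 cKO, and the biological coefficient of variation was 0.988% with it and 3.14% without. Same-numbered libraries correlated at 0.06 to 0.21 between Cx43 cKO and APP/PS1 and 0.09 to 0.26 between Cx43 cKO and WT. All were positive, but not all were above 0.1, and not every library correlated best with its own number. These values do not decide whether the numbers pair the libraries in those comparisons.

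Log2 ratios of class sums moved as follows. Astrocytes in APP/PS1 against WT were 0.29 with library totals, 0.041 on TPM and 0.29 without the highest member; for Cx43 cKO against APP/PS1 -0.33, -0.20 and -0.30; against WT -0.034, -0.16 and -0.0057. Oligodendrocytes were -0.17 with totals and -0.43 on TPM, then 0.13 on TPM and -0.14 without the highest member, then -0.20, -0.30 and -0.15. Neurons were -0.030 with totals, -0.24 on TPM and 0.041 without the highest member, then -0.44 on TPM, then -0.60 with totals and -0.68 on TPM. Vessels were -0.015 with DESeq2 size factors, -0.17 with totals, -0.25 on TPM, 0.0023 without the highest member and -0.16 without Pecam1, Flt1 and Ly6c1, then -0.46 on TPM, -0.42 without the highest member and -0.30 without those 3, then -0.51, -0.71 and -0.47 with totals, on TPM and without those 3. Leaving out 1 library gave, for astrocytes, 0.42 to 0.44, -0.37 to -0.34 and 0.064 to 0.086, for oligodendrocytes -0.045 to -0.017, -0.071 to -0.038 and -0.10 to -0.067, for neurons 0.033 to 0.16, -0.64 to -0.52 and -0.52 to -0.43, and for vessels -0.041 to -0.027, -0.38 to -0.35 and -0.41 to -0.38.

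Signs turned for these genes among values called in the reported fit or under the alternative, with the log2 changes on log2(TPM + 1) and log2(TPM + 0.1) given in that order. In APP/PS1 against WT these were Slc1a3 at -0.28 and -0.28 (-0.026 with totals), Slc4a4 at -0.064 and -0.073, Ntsr2 at -0.23 and -0.24, Gpr37l1 at -0.20 and -0.20, Snap25 at -0.097 and -0.10, Syn1 at -0.29 and -0.37, Flt1 at -0.32 and -0.32 (-0.074 with totals) and Slco1a4 at -0.37 and -0.37 (-0.12 with totals). GC and length offsets, alike with and without the block, gave Atp1b2 0.024, Mag 0.086, Cnp 0.077, Cdh5 0.025, Ly6c1 -0.070 and Slco1a4 -0.098. In Cx43 cKO against APP/PS1 these were Mbp at 0.17 and 0.17, Cnp at 0.20 and 0.20, Pecam1 at 0.13 and 0.14, Kdr at 0.038 and 0.041, Pdgfrb at 0.061 and 0.065, Mag at -0.11 with offsets and Gfap at -0.11 with offsets and block. In Cx43 cKO against WT the values that turned sign were all uncalled (Fabp7, Slc4a4, Mog and Syn1). Of the member values with 1 library left out, 902 kept their call or lack of one, 34 lost a call and 9 gained one. Of the others 1090 kept it, 57 lost a call, 69 gained one and 44 turned sign as above. The causes were not tested. Counts were low for Rbfox3 (22 to 61 counts per library) and Nefl (59 to 100), and in some libraries for other genes such as Fabp7 (from 44) and Tubb3 (from 57). The part of low counts was not tested.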

Other observations

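Marker lists of further cell types were measured in the same libraries. Genes of oligodendrocyte precursors summed to 73.5 ± 1.03 CPM in WT, 91.1 ± 3.32 for APP/PS1 and 106 ± 3.30 for Cx43 cKO (mean ± SD, n = 3), where the sums of mature oligodendrocyte members were 1508 ± 28.9, 1478 ± 21.7 and 1419 ± 36.3 CPM. On summed TPM the precursor genes had 24.6, 22.9 and 31.0, so that APP/PS1 turned lower than WT. Of the 6 precursor genes 5 were higher in Cx43 cKO than in WT and none was lower, where 24.7% and 23% of all genes were called higher and lower. Cspg4, a proteoglycan that pericytes also make, rose by a log2 change of 0.68 ± 0.04, Pdgfra, the growth factor receptor of precursors, by 0.59 ± 0.10, and Gpr17, a receptor of cells about to differentiate, by 0.96 ± 0.12. Vcan, an extracellular matrix proteoglycan that monocytes also make, had 19.2 ± 1.15 CPM in WT, 7.39 ± 0.551 for APP/PS1 and 18.3 ± 0.532 for Cx43 cKO.

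Genes of the choroid plexus and ependyma, cells that line the ventricles, summed to 434 ± 10.2 CPM in WT, 1156 ± 13.0 for APP/PS1 and 592 ± 11.7 for Cx43 cKO, and Ttr, the secreted thyroid hormone carrier, made up most of it at 408, 1109 and 562 CPM. Ttr had log2 changes of 1.44 ± 0.03 in APP/PS1 against WT and -0.98 ± 0.03 in Cx43 cKO against APP/PS1, and of the 5 genes of this list that were tested 5 were lower in the latter, against 27.7% of all genes. Fibroblast genes summed to 77.0 ± 25.5, 57.0 ± 6.85 and 39.5 ± 5.95 CPM, with 5 of 6 lower in Cx43 cKO than in WT, against 23% of all genes. Genes of T and NK cells summed to 23.2 CPM in WT, 39.6 for APP/PS1 and 26.9 for Cx43 cKO, and 4 of 5 were higher in APP/PS1 than in WT, against 26.9% of all genes. On summed TPM these genes had 59.0, 67.8 and 54.5, so that Cx43 cKO turned lower than WT.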
